A study of Homo sapiens with 7 samples.

Results

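The 54 genes described here encode the machinery of DNA replication and the regulators of entry into S phase, among them the MCM and ORC proteins, the replicative polymerases, the cyclins of G1 and the E2F factors. They were found as the rows of the deposited count table whose symbol, joined through the gene identifier, was on a fixed list. All 54 were found among 25702 gene identifiers, and all 54 passed the limit on low values of at least 10 CPM (counts scaled to a common library total) in at least 2 libraries, as did 10452 genes in all. The counts came from RNA-seq of 7 lines of K562, an established chronic myeloid leukemia line that carries the BCR::ABL1 fusion, with 1 library per line.

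The drug naive line and the DMSO vehicle line were the 2 controls. The 10, 15 and 25 nM dasatinib resistant (DasR) lines form the early stage group and those at 50 and 200 nM the late stage group, each named for the concentration of the tyrosine kinase inhibitor dasatinib it had been brought to. All DasR lines are steps of a single dose escalation of K562, so they share a history and are not independent selections. The division into early and late stage was the study's own and was taken from a clustering of these same libraries. Library totals, in counts, were 21007761 for naive and 24037893 for DMSO cells, 27808639, 27844799 and 20059656 for the early stage lines in order of dose, and 20827519 and 21588772 for those of the late stage. As each line has a single library, the lines of a group stood in for replicates, and p-values measure the spread between these lines, dose included. The labels call the cells erythroblasts, and all 13 erythroid markers examined, GATA1, KLF1 and the globins among them, were above 1 CPM in every line and none was at 0.

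Replication begins with licensing in G1, when the origin recognition complex (ORC), CDC6 and CDT1 load the MCM2 to MCM7 helicase onto DNA. In S phase CDC45 and the GINS complex switch the helicase on, primase and the polymerases copy the strands, and the sliding clamp PCNA keeps the polymerases on their template. The D cyclins with CDK4 and CDK6, followed by the E cyclins with CDK2, phosphorylate RB1 and so free the E2F factors, which drive transcription of many replication genes. In bulk RNA, fewer cells in S phase and less RNA per cell cannot be told apart.

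Single members moved, while the shares of members past the study's threshold were near or below those of all genes. At an FDR of 0.005 by the quasi-likelihood test of edgeR, adjusted after Benjamini and Hochberg over all 10452 genes, 4 members (PCNA, FEN1, GINS2 and TYMS) rose in the early stage lines and 1 (CDC6) fell. Over all tested genes at that threshold 7.92% rose and 10.1% fell at the early stage. In the late stage lines 1 member (PCNA) rose and 3 (CDC6, CDT1 and E2F1) fell, against 3.42% of all genes higher and 4.56% lower. Thus CDC6 fell and PCNA rose at both stages. The 4 late stage calls were all lost when only the 2 groups compared entered the fit, where calls over all genes also dropped, from 834 to 257 (2.46%).

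At an FDR of 0.05, 15 members stood higher and 4 lower at the early stage, beside 22.6% and 24% of all genes. In the late stage lines the same threshold gave 7 higher and 7 lower, beside 16.2% and 17.6%. Counted instead by lines that did not overlap, a rule added after the data were seen, 19 members lay above both controls in every early stage line and 7 below, where all genes gave 35.5% above and 35.1% below. For the late stage lines these were 20 above and 10 below, where all genes gave 33.6% and 34.9%. The median log2 fold change of the members was 0.14 at the early and 0.11 at the late stage, while that of all tested genes was 0.0031 and -0.0036. For the members, with the naive line left out these values were 0.041 and 0.017, and with the DMSO line left out 0.24 and 0.19.

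**Figure D1:**
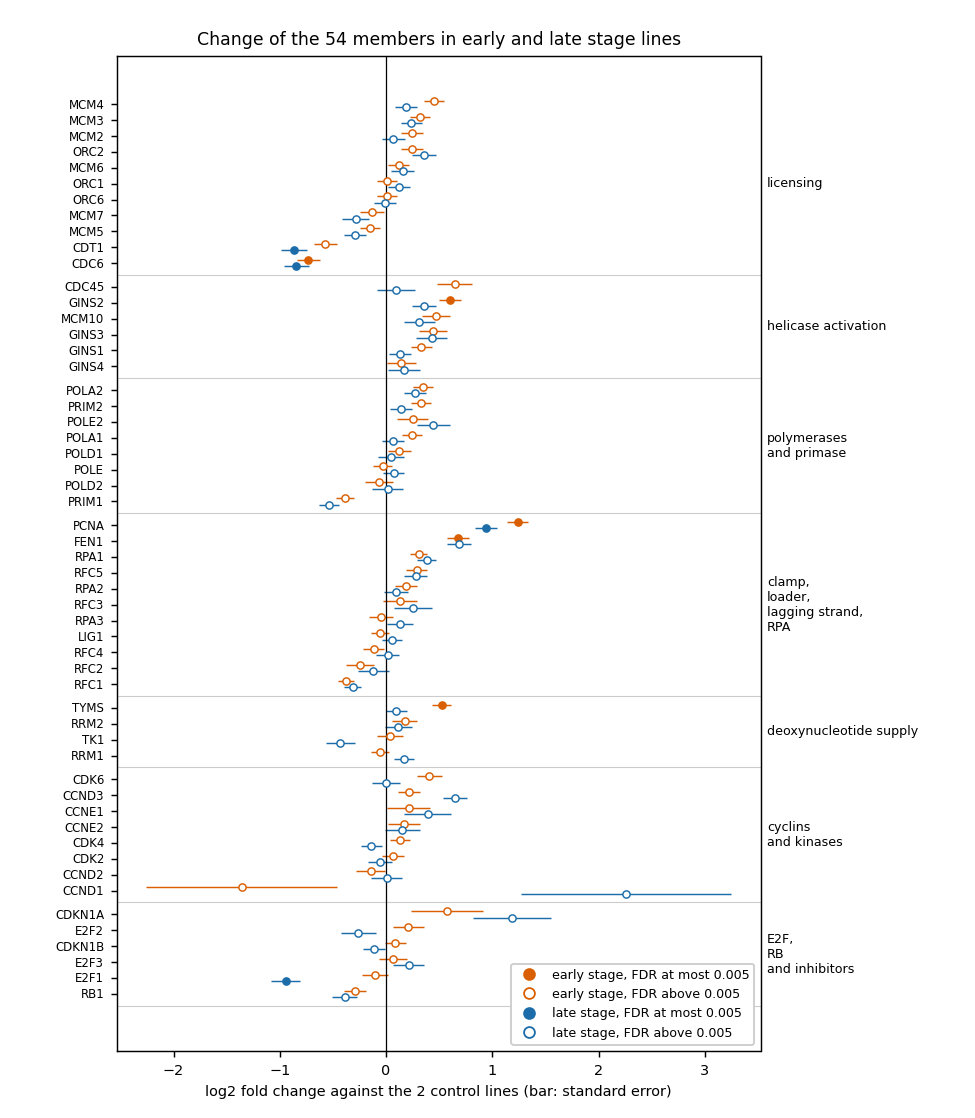
Log2 fold change of each of the 54 members against the 2 control lines, in the early stage lines (orange) and late stage lines (blue), grouped by role and ordered by the early stage value. Points are edgeR estimates, bars their standard errors, and filled points passed an FDR of 0.005. PCNA stands at 1.24 and 0.94, CDC6 at -0.73 and -0.85, and CCND1 has the widest bars.

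Late and early stage lines were then compared with each other. No gene of the 10452 passed an FDR of 0.005 in edgeR, where 3450 had an unadjusted p under 0.05, so 0.05 was used for this comparison. At 0.05, CCND1 and CCND3 were higher in the late stage lines and E2F1, TYMS and TK1 lower, 2 and 3 of 54 members beside 6.6% and 6.1% of all genes. The median log2 difference of the members was -0.065, with 22 above 0 and 32 below, and that of all genes was -0.0053. With only these 2 groups in the fit, the calls of CCND1, CCND3 and TK1 were lost. Without the 200 nM line, with the late stage resting on the 50 nM line alone, all 5 were lost and no gene of the 10452 was called by edgeR, where 1975 had an unadjusted p under 0.05.

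Levels per length, as CPM per kilobase of exon, placed the members over a wide range. The mean over the 7 lines was highest for CDC45, at 203 CPM per kb, and lowest for CCND1, at 6.58, with a median of 35.6 over the 54 members. In each other role group the highest means were those of MCM7 at 139, TYMS at 125, PCNA at 118, CCND3 at 109, POLD2 at 103 and E2F3 at 26.7 CPM per kb. E2F and RB genes and the CDK inhibitors were therefore the group with the lowest top level. CCND1 also had the largest ratio between its highest and lowest line, 24.4 and 0.30 CPM per kb.

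**Figure D2:**
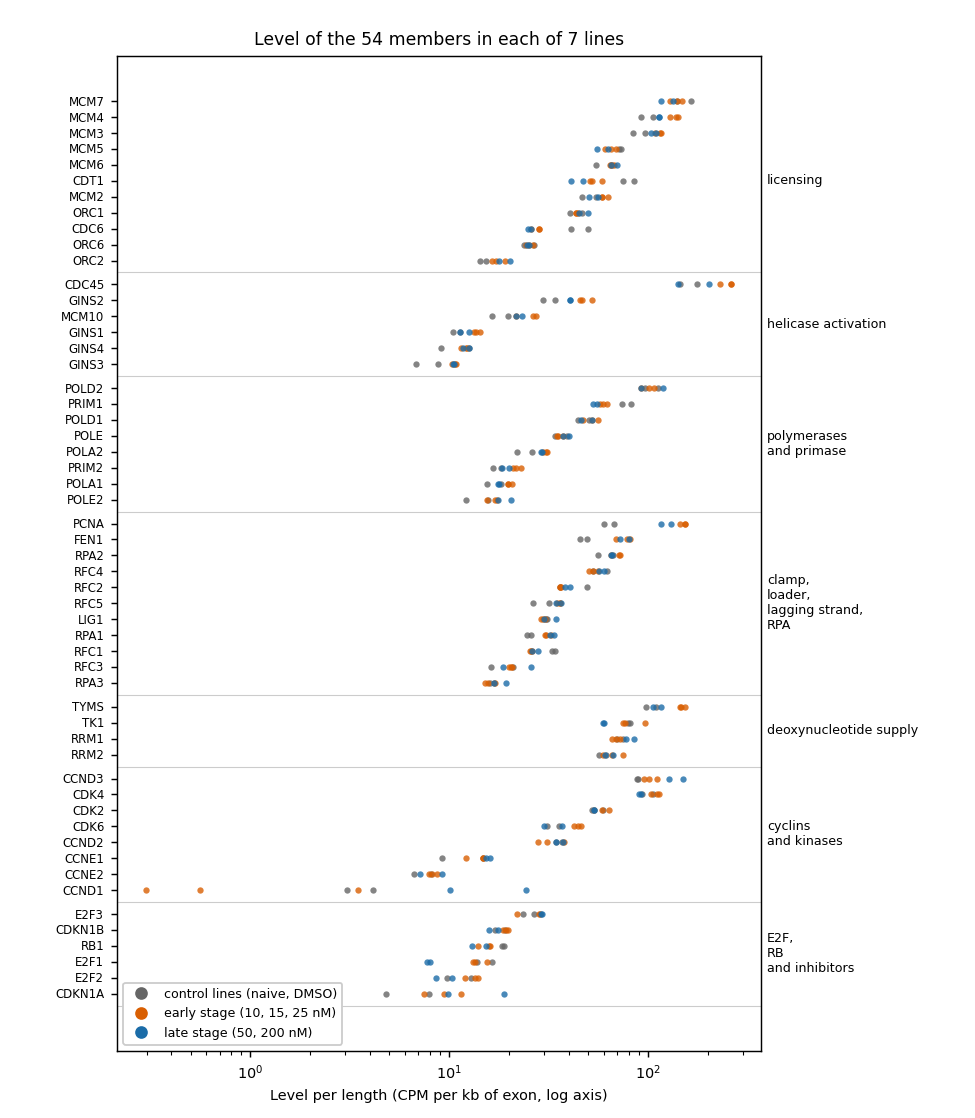
Level of each member in each line, as CPM per kb of exon on a log axis, for the control (grey), early stage (orange) and late stage (blue) lines. The 7 points of most genes lie close together, those of PCNA and FEN1 show both controls below every DasR line, and those of CCND1 spread from 0.30 to 24.4.

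Because many members are known targets of E2F factors, their promoters were searched for the E2F strings TTTCCCGC, TTTCGCGC, TTTGCCGC and TTTGGCGC on either strand, in the 250 bases before and 50 bases after each RefSeq start. A promoter was given for 45 of the 54 members, and 20 of the 45 (44.4%, 95% Wilson interval 30.9 to 58.8) held at least 1 string, compared with 7.15% of 8339 tested genes and 3.99% of 27305 genes in the RefSeq table, which was built on GRCh38. With TTTCCCGC and TTTGGCGC alone the shares were 40%, 4.9% and 2.75%. Stretches around the match are shown for members past a threshold, those that rose and those that fell, 5′ to 3′ on the strand of the gene, with the matched string or its reverse complement in capitals. Coordinates are on GRCh37, the same build as hg19.
PCNA, chr20:5107269-5107348, minus strand: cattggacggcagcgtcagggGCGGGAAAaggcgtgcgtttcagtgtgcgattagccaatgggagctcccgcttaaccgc
GINS2, chr16:85722561-85722640, minus strand: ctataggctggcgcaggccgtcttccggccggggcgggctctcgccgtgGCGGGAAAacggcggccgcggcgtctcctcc
TYMS, chr18:657573-657652, plus strand: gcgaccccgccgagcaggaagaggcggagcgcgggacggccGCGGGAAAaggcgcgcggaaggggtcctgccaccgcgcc
CDC6, chr17:38444126-38444155, plus strand: tggccattcggaTTTGGCGCgagcgcggct
CDT1, chr16:88870117-88870196, plus strand: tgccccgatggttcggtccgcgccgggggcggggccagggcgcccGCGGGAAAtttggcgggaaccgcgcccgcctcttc
E2F1, chr20:32274192-32274271, minus strand: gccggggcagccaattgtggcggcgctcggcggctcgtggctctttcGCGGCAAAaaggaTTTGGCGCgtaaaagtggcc
The PCNA match lies in 1 of its 2 annotated promoters. FEN1, which rose, had none of the 4 strings in its window. The CDC6 match lies just after its start and the others before theirs. So the strings stood near the starts of members that rose (PCNA, GINS2, TYMS) and of members that fell (CDC6, CDT1, E2F1). A match describes the letters of the window and is not evidence of binding.

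Among the 11 licensing genes, CDC6 fell at both stages and CDT1 at the late stage, and no MCM or ORC gene passed the FDR of 0.005. CDC6 (gene 990, chr17:38444131-38460909), the ATPase that works with ORC to load MCM, was counted at 125 CPM in the naive and 153 in the DMSO line, at 78.3, 86.1 and 86.6 in the 10, 15 and 25 nM lines, and at 79.0 and 75.8 in the 50 and 200 nM lines. Every DasR line lay below both controls, and the DasR lines differed little from one another. The early stage lines were 1.66-fold lower (log2 fold change -0.73, SE 0.11, edgeR FDR = 0.00212) and the late stage lines 1.80-fold lower (-0.85, SE 0.12, FDR = 0.00315). The early stage call was lost when any 1 of the naive, DMSO, 10, 15 or 25 nM lines was left out, with FDRs between 0.00562 and 0.0113, and the late stage call when any 1 of the 7 lines was, with FDRs between 0.00543 and 0.0164.

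CDT1 (gene 81620, chr16:88870197-88875666), the partner of CDC6 that brings MCM to the origin, stood at 228 and 201 CPM in the naive and DMSO lines, at 136, 157 and 140 in the early stage lines and at 110 and 126 in the late stage lines. The 3 groups did not overlap, with controls highest and the late stage lowest. CDT1 fell in the late stage lines by 0.86 on the log2 scale (SE 0.12, edgeR FDR = 0.00302), 1.82-fold. In the early stage lines its value of -0.57 (SE 0.11) lay just outside the threshold, with an FDR of 0.00546. From early to late stage lines the log2 difference of CDT1 was -0.29 (FDR = 0.117). The late stage call was lost without any 1 of the naive, DMSO, 10, 25, 50 or 200 nM lines, with FDRs between 0.00556 and 0.022. GMNN, which encodes geminin, the inhibitor that binds CDT1, rose at both stages and is described with the other pathway genes.

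The 6 subunits of the MCM2 to MCM7 ring did not share a direction. In the early stage lines the log2 fold change was 0.45 for MCM4 (FDR = 0.0071), 0.32 for MCM3 (FDR = 0.0266), 0.24 for MCM2 (FDR = 0.0903), 0.12 for MCM6 (FDR = 0.359), -0.13 for MCM7 (FDR = 0.377) and -0.15 for MCM5 (FDR = 0.214), all by edgeR. MCM4 was counted at 325 and 376 CPM in the naive and DMSO lines, at 456, 497 and 487 in the early stage lines and at 399 and 402 in the late stage lines. Its early stage lines thus lay above all the others, while MCM5, at 182 and 185 CPM in the controls, was between 154 and 176 in the early stage lines and at 141 and 159 in the late stage lines. In the late stage lines no MCM subunit passed an FDR of 0.05, with values from -0.29 for MCM5 and MCM7 to 0.24 for MCM3. Exons of MCM7 share 7.9% of their bases with AP4M1 on the opposite strand, and AP4M1 was at 12.4 CPM in the controls. Of the origin recognition genes, ORC1 had a log2 fold change of 0.01 at the early and 0.12 at the late stage and ORC6 of 0.01 and -0.01, and ORC2 passed an FDR of 0.05 only against the late stage lines, at 0.36 (SE 0.11, FDR = 0.0471).

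The 6 genes of helicase activation all had positive values at both stages, with a median log2 fold change of 0.46 in the early and 0.24 in the late stage lines. In the early stage lines 1 of them passed an FDR of 0.005 and 5 an FDR of 0.05, beside 7.92% and 22.6% of all genes higher. In the late stage lines these were 0 and 1, beside 3.42% and 16.2%, and 2 had an unadjusted p under 0.05, as had 45.9% of all genes. GINS2 (gene 51659, chr16:85709804-85723679), a subunit of the GINS complex, was at 34.9 and 40.0 CPM in the naive and DMSO lines, at 53.6, 61.7 and 55.2 in the early stage lines and at 48.0 and 47.9 in the late stage lines. The controls were the 2 lowest lines and the early stage lines the 3 highest. GINS2 rose 1.52-fold in the early stage lines (log2 fold change 0.60, SE 0.10, edgeR FDR = 0.00391), and in the late stage lines its value was 0.35 (SE 0.11, FDR = 0.0477). The early stage call was close to the threshold and was lost without any 1 of the 7 lines, with FDRs between 0.00551 and 0.0322, and also with library size alone as the scaling and with only the 2 groups compared in the fit.

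CDC45, the factor that joins MCM and GINS into the active helicase, differed between the 2 late stage lines. It was counted at 292 and 354 CPM in the naive and DMSO lines, at 463, 524 and 526 in the early stage lines, 406 in the 50 nM line and 284 in the 200 nM line. The early stage lines were thus the highest 3, and the 200 nM line lay below both controls. Its log2 fold change was 0.64 (SE 0.17, FDR = 0.0172) in the early and 0.09 (SE 0.18, FDR = 0.713) in the late stage lines, and -0.55 between late and early stage (FDR = 0.0684). Early stage values of the other members were 0.47 for MCM10 (FDR = 0.0227), 0.44 for GINS3 (FDR = 0.0291), 0.33 for GINS1 (FDR = 0.0258) and 0.14 for GINS4 (FDR = 0.424). In 5 of the 6 genes the naive line was the lowest of the 7.

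Of the 8 genes of the polymerases and primase, none passed an FDR of 0.005 at either stage by edgeR, and 4 and 3 had an unadjusted p under 0.05, as had 54.2% and 45.9% of all genes. The 2 primase subunits pointed in opposite directions. PRIM1, the catalytic primase subunit, was at 108 and 120 CPM in the controls, at 86.5, 90.7 and 84.2 in the early stage lines and at 77.2 and 80.5 in the late stage lines. PRIM2, the regulatory subunit, was at 37.9 and 41.8 CPM in the controls, at 49.7, 47.9 and 52.8 in the early stage lines and at 42.3 and 45.6 in the late stage lines. For both genes no DasR line overlapped the controls. The log2 fold change of PRIM1 was -0.39 at the early (SE 0.08, edgeR FDR = 0.00874) and -0.54 at the late stage (SE 0.09, FDR = 0.00627), and that of PRIM2 0.33 (SE 0.09, FDR = 0.0253) and 0.14 (SE 0.10, FDR = 0.331). POLA2, a subunit of polymerase alpha, had 0.34 at the early stage (FDR = 0.0224). The catalytic subunits POLA1, POLD1 and POLE had early stage values of 0.24, 0.12 and -0.03 and did not pass an FDR of 0.05 at either stage.

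PCNA (gene 5111, chr20:5095599-5107272), the sliding clamp, had the largest positive log2 fold change of the 54 members in the early stage lines. It was counted at 86.9 CPM in the naive and 97.0 in the DMSO line, at 208, 222 and 222 in the 10, 15 and 25 nM lines, and at 167 and 187 in the 50 and 200 nM lines. The 3 groups did not overlap, with the late stage lines between the controls and the early stage lines. PCNA rose 2.36-fold in the early stage lines (log2 fold change 1.24, SE 0.10, edgeR FDR = 0.000243) and 1.92-fold in the late stage lines (0.94, SE 0.10, FDR = 0.00141). Between late and early stage the log2 difference was -0.30 (SE 0.09, FDR = 0.0779). The early stage call held under each of the 14 alternatives tried, with a log2 fold change from 1.16 to 1.32. The late stage call was lost without the naive (FDR = 0.0129), DMSO (FDR = 0.00675), 25 nM (FDR = 0.00523) or 200 nM line (FDR = 0.00582).

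FEN1 (gene 2237, chr11:61560383-61564710), the flap endonuclease that trims Okazaki fragments while bound to PCNA, stood at 102 and 111 CPM in the controls. It was at 155, 182 and 175 in the early stage lines and at 163 and 181 in the late stage lines. All 5 DasR lines lay above both controls, and early and late stage lines overlapped. FEN1 rose 1.60-fold in the early stage lines (log2 fold change 0.68, SE 0.10, edgeR FDR = 0.00256), and in the late stage lines the same size of 0.68 (SE 0.11) lay just outside the threshold, with an FDR of 0.00526. The early stage call was lost without the naive (FDR = 0.0246), DMSO (FDR = 0.0121), 15 nM (FDR = 0.00811) or 25 nM line (FDR = 0.0123).

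The 5 subunits of replication factor C, which opens the clamp and loads it onto DNA, did not share a direction, and none passed an FDR of 0.005. RFC1, the large subunit, was at 167 and 161 CPM in the controls, between 124 and 127 in the early stage lines and at 128 and 136 in the late stage lines, so that no DasR line reached the controls. Its log2 fold change was -0.38 (SE 0.08, edgeR FDR = 0.00637) in the early and -0.32 (SE 0.08, FDR = 0.0254) in the late stage lines. RFC5 had 0.29 (FDR = 0.0489) in the early stage lines, and RFC2, RFC3 and RFC4 had -0.25, 0.13 and -0.12, none past an FDR of 0.05. RPA1, the large subunit of the single-strand binding protein RPA, passed an FDR of 0.05 at both stages, with 0.31 (FDR = 0.0171) and 0.38 (FDR = 0.0155). Neither pass held in all 14 alternatives. RPA2, RPA3 and the ligase LIG1 stayed between -0.06 and 0.19 at both stages, none past an FDR of 0.05.

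**Figure D3:**
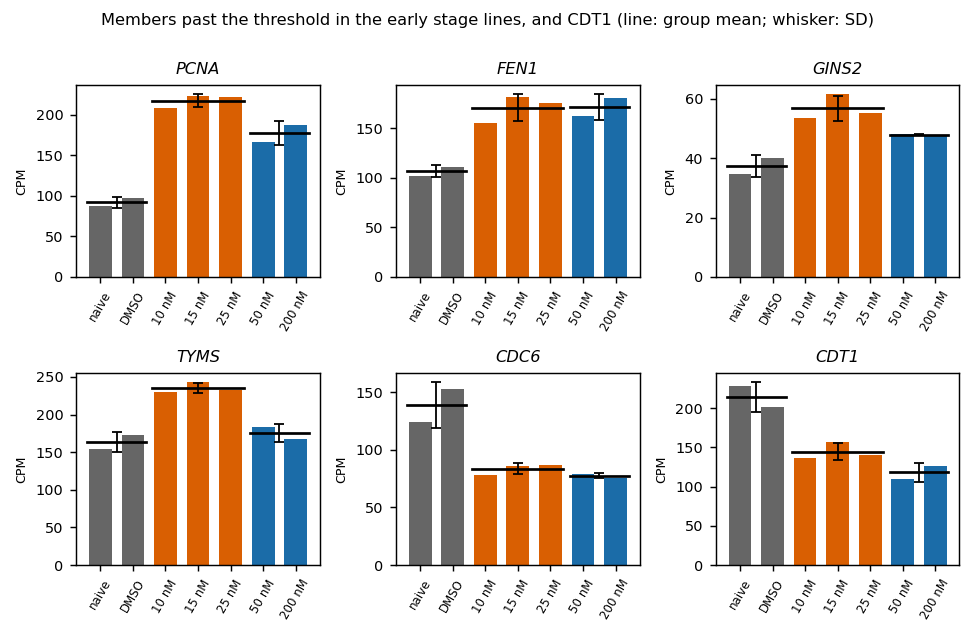
CPM of the 5 members past an FDR of 0.005 in the early stage lines and of CDT1, with 1 bar per line, the group mean as a line and the SD as a whisker. PCNA, FEN1 and GINS2 are lowest in the 2 controls, CDC6 and CDT1 are highest there, and TYMS is highest in the early stage lines, with late stage values of 184 and 167 that overlap the controls.

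Of the 4 genes of deoxynucleotide supply, TYMS rose in the early stage lines and was lower again in the late stage lines. TYMS (gene 7298, chr18:657653-673578), thymidylate synthase, was at 154 and 173 CPM in the naive and DMSO lines, at 230, 243 and 232 in the early stage lines and at 184 and 167 in the late stage lines. The early stage lines lay above all the others, and the late stage lines overlapped the controls. TYMS rose 1.44-fold in the early stage lines (log2 fold change 0.52, SE 0.09, edgeR FDR = 0.00403), and its value in the late stage lines was 0.10 (SE 0.10, FDR = 0.482). From early to late stage it changed by -0.43 (SE 0.09, FDR = 0.0296). The first call was lost without any 1 of the naive, DMSO, 10, 15 or 25 nM lines, with FDRs between 0.0108 and 0.0323, and the second without the 10 nM (FDR = 0.0509), 15 nM (FDR = 0.0855), 25 nM (FDR = 0.0833) or 200 nM line (FDR = 0.159). Exons of TYMS in GENCODE share 39.9% of their 2421 bases with ENOSF1 on the opposite strand, while the authors' exon length of TYMS is 1583. ENOSF1 was at 72.9 CPM in the controls and 55.0 in the early stage lines. Whether strand was used in the counting is not given in the sources used here.

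TK1, the thymidine kinase of S phase, was at 129 and 127 CPM in the controls, at 120, 154 and 122 in the early stage lines and at 95.7 and 94.7 in the late stage lines. The late stage lines were the 2 lowest. Against the controls, TK1 had a log2 fold change of 0.04 (SE 0.12, edgeR FDR = 0.807) at the early and -0.43 (SE 0.13, FDR = 0.0435) at the late stage. TK1 was lower in the late than in the early stage lines by edgeR, with a log2 difference of -0.47 (SE 0.12, FDR = 0.0493), a value at the edge of the threshold that was lost without any 1 of the naive, DMSO, 15, 25, 50 or 200 nM lines, with FDRs between 0.0767 and 0.208. The TK1 call was also lost with library size alone as the scaling, with a limit of 1 CPM, with no filter and with only the 2 groups compared in the fit. RRM1 and RRM2, the subunits of ribonucleotide reductase, had log2 fold changes of -0.06 and 0.18 in the early and of 0.17 and 0.12 in the late stage lines, none past an FDR of 0.05.

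Among the 8 cyclins and kinases, CCND1 and CCND3 differed between the stages. CCND1 (gene 595, chr11:69455924-69469242), cyclin D1, was counted at 17.8 and 13.1 CPM in the naive and DMSO lines, at 2.38, 1.28 and 15.0 in the 10, 15 and 25 nM lines, and at 43.2 and 105 in the 50 and 200 nM lines. The 10 and 15 nM lines were lowest, the 25 nM line lay between the controls, and both late stage lines lay above all the others. The late stage lines were 12.3-fold above the early stage lines (log2 difference 3.62, SE 0.91, edgeR FDR = 0.044). The size of this difference depended on single lines, at 7.15-fold without the 200 nM line and 40.3-fold without the 25 nM line. Against the controls neither stage passed an FDR of 0.05, with -1.36 (SE 0.90, FDR = 0.25) in the early and 2.26 (SE 0.99, FDR = 0.117) in the late stage lines. The call between stages was lost without the naive (FDR = 0.0757), DMSO (FDR = 0.0762), 10 nM (FDR = 0.0807), 15 nM (FDR = 0.0827) or 200 nM line (FDR = 0.212).

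CCND3 (gene 896, chr6:41902672-42018095), cyclin D3 and the D cyclin of highest level per length in these lines, was at 215 and 213 CPM in the controls. It was at 231, 269 and 245 in the early stage lines and at 309 and 363 in the late stage lines. The 3 groups did not overlap, and the late stage lines were highest. CCND3 was 1.35-fold higher in the late than in the early stage lines (log2 difference 0.43, SE 0.10, edgeR FDR = 0.0387), and against the controls its late stage value of 0.65 (SE 0.11, FDR = 0.00663) lay just outside 0.005. The call between stages was lost without any 1 of the naive, DMSO, 10, 15, 25 or 200 nM lines, with FDRs between 0.0597 and 0.207. CCND2 ranged from 182 to 246 CPM over the 7 lines, with -0.15 at the early and 0.01 at the late stage, neither past an FDR of 0.05.

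No kinase gene passed an FDR of 0.05 between the stages. CDK6, a partner of the D cyclins, was at 363 and 421 CPM in the controls, at 541, 498 and 521 in the early stage lines and at 436 and 350 in the late stage lines. Its early stage value was 0.41 (SE 0.12, edgeR FDR = 0.0279) and its late stage value 0.00 (FDR = 0.991). Over the 14 alternatives the early stage value ranged from 0.31 to 0.52, and the pass at 0.05 did not hold in all of them. CDK4 had 0.13 and -0.14 and CDK2 0.07 and -0.06, none past an FDR of 0.05. Exons of CDK4 share 44.2% of their bases with TSPAN31 on the opposite strand, which was at 17.8 CPM in the controls. The E cyclins CCNE1 and CCNE2, which activate CDK2, had early stage values of 0.21 and 0.16 and late stage values of 0.39 and 0.15, again none past 0.05. Exons of CCNE2 share 37% of their bases with INTS8 on the opposite strand, at 103 CPM in the controls, where CCNE2 itself was at 18.1 and 21.9. CCNE1 was at 18.3 CPM in the naive line and between 24.2 and 32.0 in the other 6 lines.

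Among the 6 E2F, RB and inhibitor genes, E2F1 fell at the late stage and also differed between the stages. E2F1 (gene 1869, chr20:32263283-32274191), an activating E2F factor, was at 37.2 and 44.4 CPM in the naive and DMSO lines, at 36.4, 41.7 and 35.3 in the early stage lines and at 21.6 and 20.8 in the late stage lines. Controls and early stage lines overlapped, and both late stage lines lay below them. E2F1 fell 1.92-fold at the late stage (log2 fold change -0.94, SE 0.14, edgeR FDR = 0.00344), and its early stage value was -0.11 (SE 0.12, FDR = 0.495). Between late and early stage lines the log2 difference was -0.84 (SE 0.13, FDR = 0.0167). The first call was lost without any 1 of the naive, DMSO, 10, 25, 50 or 200 nM lines, with FDRs between 0.00659 and 0.0174, and the second without the 200 nM line (FDR = 0.0873).

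The other activating E2F genes did not pass an FDR of 0.05 in any comparison. E2F2 had log2 fold changes of 0.21 at the early and -0.26 at the late stage, and E2F3 of 0.06 and 0.21. RB1, which encodes the retinoblastoma protein that restrains E2F, was at 89.6 and 87.6 CPM in the controls, at 76.1, 66.2 and 75.2 in the early stage lines and at 73.4 and 62.3 in the late stage lines. Every DasR line lay below both controls, and RB1 had -0.29 (SE 0.10, edgeR FDR = 0.055) at the early and -0.39 (SE 0.12, FDR = 0.038) at the late stage.

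Of the inhibitors, CDKN1A (p21) was at 18.1 and 11.0 CPM in the controls, at 21.5, 17.0 and 26.3 in the early stage lines, and at 43.3 and 22.7 in the 50 and 200 nM lines. The 50 nM line was the highest, and the early stage lines overlapped the controls. CDKN1A had 0.57 (SE 0.34, edgeR FDR = 0.202) at the early and 1.18 (SE 0.37, FDR = 0.0436) at the late stage. Over the 14 alternatives its late stage value ranged from 0.64 to 1.58, and the pass at 0.05 did not hold in all of them. CDKN1B (p27) stayed between 38.4 and 47.6 CPM, with 0.09 and -0.11, neither past 0.05.

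**Figure D4:**
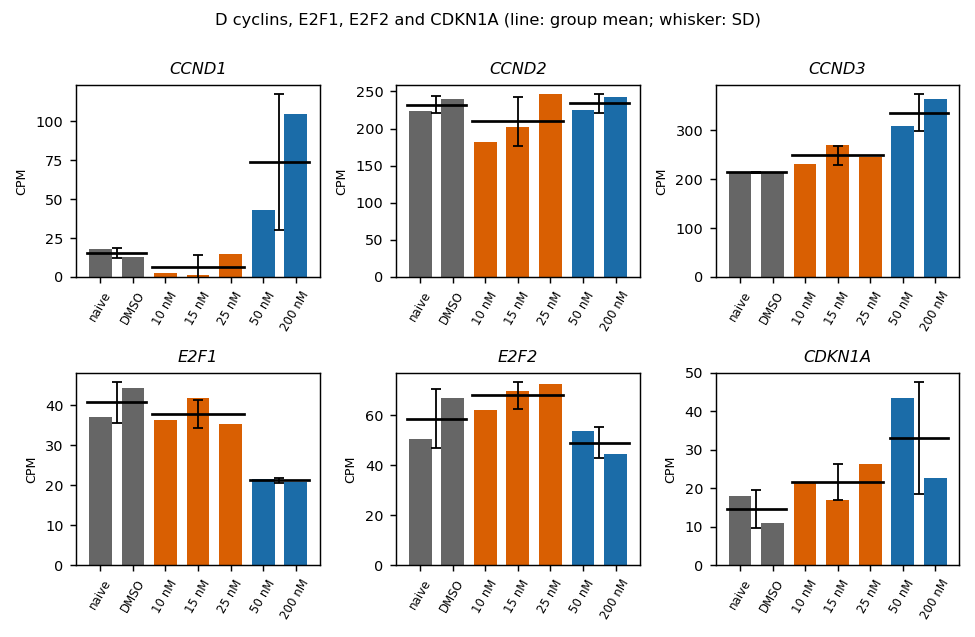
CPM of the D cyclins, E2F1, E2F2 and CDKN1A, with 1 bar per line, the group mean as a line and the SD as a whisker. CCND1 is lowest at 10 and 15 nM and highest at 200 nM, CCND3 is highest at 50 and 200 nM, and E2F1 is lowest in these same 2 lines.

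The 2 control lines differed in the same direction for most members. The DMSO line was above the naive line for 44 of the 54 members (81.5%), where over all tested genes it was above in 51.9% and among 65 other genes of replication and G1/S in 86.2%. The median log2 difference between DMSO and naive was 0.19 over the members, 0.18 over those 65 genes and 0.0097 over all genes. All 6 helicase activation genes and all 8 polymerase and primase genes were higher in DMSO. The ratio of DMSO to naive was 1.60 for CCNE1, 1.38 for GINS4 and 1.37 for RFC2, and 0.608 for CDKN1A. The naive line was the lowest of the 7 for 28 members (51.9%), where it was lowest for 24.4% of all tested genes. With 1 library of each control this difference has no replicate and no test, and its part in the comparisons with the controls was not tested beyond the values given with each control left out.

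Relative to the mean of the controls, the median of the members was -0.094 in the naive line and 0.094 in the DMSO line on the log2 scale. It was 0.12, 0.16 and 0.19 in the 10, 15 and 25 nM lines, and 0.096 and 0.14 in the 50 and 200 nM lines. The DasR medians were thus all above the DMSO line, but that of the 50 nM line by a small margin. Between the 2 late stage lines, 34 of the 54 members were higher at 200 nM, with a median log2 difference of 0.083, where over all tested genes 49.6% were higher, with a median of -0.0027.

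**Figure D5:**
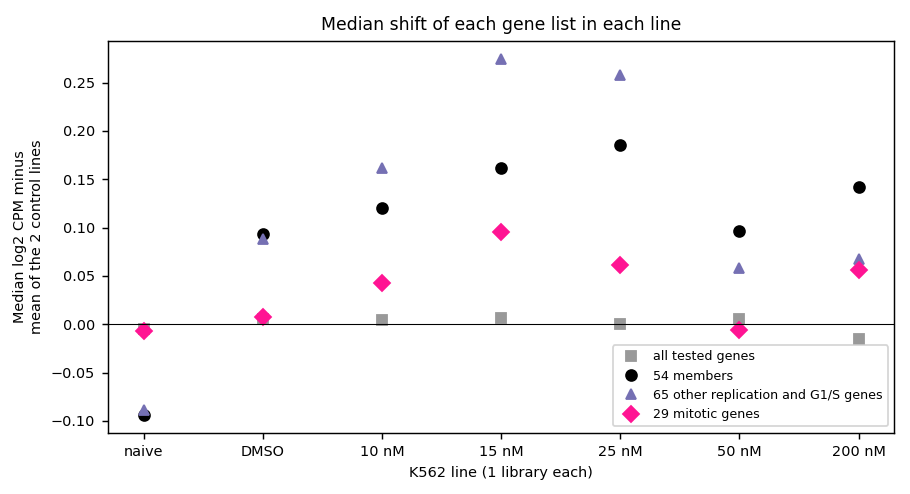
Median log2 CPM of each gene list in each line, minus the mean of the 2 control lines, for all tested genes (squares), the 54 members (circles), 65 other replication and G1/S genes (triangles) and 29 mitotic genes (diamonds). The members stand at -0.094 in the naive and 0.094 in the DMSO line and between 0.096 and 0.19 in the DasR lines, while all tested genes stay near 0.

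A list of 71 further genes of replication, deoxynucleotide supply, chromatin assembly and G1/S control gave the setting of the members. Of these, 65 were tested, and CCNA1, CDKN2A, CDKN2B, CDKN2D, LIN37 and LIN52 were under the limit on low values, CDKN2A with 0 counts in each line. At an FDR of 0.005, 2 rose and 4 fell in the early stage lines, beside 7.92% and 10.1% of all genes, and 2 rose and 2 fell in the late stage lines, beside 3.42% and 4.56%. At 0.05, 23 were higher and 9 lower at the early stage, beside 22.6% and 24% of all genes. The late stage gave 10 higher and 8 lower, beside 16.2% and 17.6%. The median log2 fold change of the 65 was 0.18 at the early and 0.075 at the late stage.

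GMNN, the geminin gene, was at 51.4 and 60.3 CPM in the controls, at 98.2, 108 and 111 in the early stage lines and at 97.2 and 102 in the late stage lines. All DasR lines lay above both controls, with 0.92 (SE 0.10, edgeR FDR = 0.000839) at the early and 0.83 (SE 0.11, FDR = 0.00263) at the late stage. DCTPP1, which hydrolyzes deoxynucleotide triphosphates and clears modified ones, was at 18.9 and 24.0 CPM in the controls, at 42.8, 51.1 and 53.8 in the early stage lines and at 47.5 and 56.9 in the late stage lines. It rose at both stages, with log2 fold changes of 1.20 (SE 0.16, edgeR FDR = 0.00151) and 1.28 (SE 0.17, FDR = 0.00257). The early stage call of GMNN was lost without the naive or 25 nM line and that of DCTPP1 without the naive, DMSO, 15 or 25 nM line. Both late stage calls were lost with only the 2 groups in the fit and without any 1 of the naive, DMSO, 25, 50 or 200 nM lines, that of GMNN also without the 15 nM line.

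In the other direction, ATAD5, which takes part in unloading PCNA from DNA, was at 152 and 151 CPM in the controls, at 96.0, 80.0 and 83.9 in the early stage lines and at 81.6 and 59.7 in the late stage lines. The DasR lines all lay below the controls, with -0.81 (SE 0.14, edgeR FDR = 0.00403) at the early and -1.10 (SE 0.16, FDR = 0.00341) at the late stage. POLD4, the small subunit of polymerase delta (-1.11, FDR = 0.00275), the RB family gene RBL2 (-0.65, FDR = 0.00303) and the mitochondrial thymidine kinase TK2 (-0.97, FDR = 0.0044) fell in the early stage lines. The RB family gene RBL1 fell in the late stage lines (-0.77, SE 0.11, FDR = 0.00279). RBL1, RBL2 and the member RB1 thus all had lower values at the late stage. Of these, RBL2 (-0.39, edgeR FDR = 0.0389) and RB1 passed only the looser threshold there. Each of the calls of ATAD5, POLD4, RBL2, TK2 and RBL1 against the controls was lost without any 1 of the naive, DMSO, 15 or 25 nM lines. The early stage calls of ATAD5 and TK2 were also lost without the 10 nM line. Late stage calls were also lost without the 200 nM line and with only the 2 groups in the fit, that of RBL1 also without the 10 or 50 nM line.

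Between late and early stage lines, 2 of the 65 genes were higher and 7 lower at an FDR of 0.05, beside 6.6% and 6.1% of all genes, and those named here were chosen after their values were seen. MYBL2, an E2F target that encodes B-Myb, was at 183 and 193 CPM in the controls, at 238, 290 and 248 in the early stage lines and at 131 and 117 in the late stage lines. The 3 groups did not overlap, the late stage lines were lowest, as they were for the member E2F1, and the log2 difference was -1.06 (SE 0.11, edgeR FDR = 0.0167). DCK, deoxycytidine kinase, was higher in the late stage lines, with 0.93 (SE 0.21, FDR = 0.0341). The MYBL2 call was lost without the 200 nM line (FDR = 0.0845), and the DCK call without any 1 of the naive, DMSO, 25 or 200 nM lines and with only the 2 groups in the fit. Processed copies of PCNA and RRM2 are known in the genome, and how reads shared with such copies were counted is not given in the sources used here.

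A list of 30 mitotic genes, 29 of them tested, was set beside the members to describe the later part of the cycle. At an FDR of 0.005 by edgeR, 0 rose and 2 fell at each stage. Of all genes, 7.92% rose and 10.1% fell at the early stage, and 3.42% and 4.56% at the late stage. At 0.05, 8 were higher and 5 lower at the early stage, beside 22.6% and 24% of all genes. In the late stage lines 3 were higher and 7 lower, beside 16.2% and 17.6%. Of the 29, 16 and 13 had an unadjusted edgeR p under 0.05 at the early and late stage, as had 54.2% and 45.9% of all genes. The median log2 fold changes were 0.050 and 0.019, beside the 0.14 and 0.11 of the members. The 2 that fell at 0.005 were TOP2A, topoisomerase II alpha (-0.89 and -0.82), and AURKB, the Aurora B kinase (-0.58 and -0.68). The DMSO line was above the naive line for 17 of the 29 (58.6%), with a median log2 difference of 0.014.

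Of the 13 erythroid markers, 10 were higher in the early stage lines at an FDR of 0.05 by edgeR, 5 of them at 0.005, and none was lower, beside 22.6% and 7.92% of all genes higher. In the late stage lines 1 of the 13 was higher at either threshold, beside 16.2% and 3.42%. The summed level of the 13 was 4422 CPM in the naive and 3874 in the DMSO line, 12312, 13585 and 10776 in the 10, 15 and 25 nM lines, and 7079 and 5079 in the 50 and 200 nM lines. The most abundant of the 13 was the embryonic globin gene HBZ in the 15 and 25 nM lines, at 2833 and 1915 CPM, and the fetal globin gene HBG2 in the other 5 lines, between 904 and 3048 CPM. HBZ was at 61.2 and 73.4 CPM in the controls and at 1872 in the 10 nM line. GATA1 (-0.18, FDR = 0.283), NFE2 (0.17, FDR = 0.172) and HBE1 (0.58, FDR = 0.362) did not pass 0.05 at the early stage. The sum was highest in the 3 early stage lines, as were 11 of the 54 members (20.4%), beside 15.1% of all tested genes. These were PCNA, TYMS, GINS2, CDC45, GINS1, MCM2, MCM4, POLA1, POLA2, PRIM2 and CDK6. The part of the erythroid sum in the values of the members was not tested. Of the markers of other cell types, MPO and ELANE (myeloid) were at or below 0.123 CPM in every line, and MS4A1 (lymphoid), KRT14 (epithelial) and LUM (fibroblast) at or below 0.183 CPM. Other genes of these lists were counted. LYZ (myeloid) was between 24.4 and 102 CPM, EPCAM (epithelial) between 51.0 and 74.4, CD3D (lymphoid) between 2.71 and 29.2, ITGAM (myeloid) between 0.732 in the 200 nM and 13.3 in the naive line, and COL1A1 (fibroblast) reached 9.44. CD3D was higher in the late than in the early stage lines, with a log2 difference of 2.41 (edgeR FDR = 0.027), and its part in the values of the members was not tested. Of the mature myeloid, lymphoid, epithelial and fibroblast lists, 1, 1, 1 and 0 genes of 6, 6, 4 and 5 passed the limit on low values.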

How the data were processed

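The authors sequenced RNA of the 7 lines as paired reads from directional libraries, aligned them to hg19 with STAR and deposited raw, unscaled counts per gene. The protocol describes depletion of ribosomal RNA, while the labels give the molecule as polyA RNA. The submitters' processing notes also name featureCounts, edgeR and FastQC, and whether strand was used in counting is not given in the sources used here. The authors' tables of comparisons, which hold their fold changes with average levels and p-values, were used for gene symbols, chromosomes and exon lengths alone. Every column of per-sample values was used.

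The limit on low values was the study's 10 CPM, here in 2 or more of the 7 libraries, and was met by 10452 of 25702 genes (40.7%). After TMM scaling, groups were compared in R 4.3.3 by glmQLFit and glmQLFTest of edgeR 4.0.16, fitted to all 7 libraries with a coefficient for each group, and p-values were adjusted by Benjamini-Hochberg over all tested genes. The common dispersion was 0.026, a coefficient of variation of 0.161 between lines. Standard errors came from the log2 fold change and its F statistic. CPM are on TMM-scaled library sizes, and log2 CPM used a prior count of 2. Lines of a group differed by more than sampling noise (chi-square per degree of freedom 14.5 to 45.1 over 5 pairs). A floor of 3 counts is between 0.107 and 0.149 CPM per library and covers counting error only. Gene positions came from GENCODE 44 on GRCh37. Shares of exon bases on the opposite strand were taken over all GENCODE exons of a gene, and the share of the counted exons was not measured.

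The FDR of 0.005 against the controls was that of the study. The members, lists, role groups and thresholds were chosen with earlier results of these data known. Named members are those past a threshold, the MCM ring, cyclins and their kinases, E2F1 to E2F3, RB1, CDKN1A, CDKN1B, PCNA, RRM1, RRM2, TYMS, TK1 and the member of highest level in each role group, and among other pathway genes the 4 of smallest p in each direction past the threshold against the controls. Others were named after their values were seen. Some results are not reported here. Alternatives covered DESeq2 1.42.0, limma 3.58.1 (voom), RLE and library size scaling, other filters, the groups in the fit, the threshold and each library left out. The functions were tested on simulated counts.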

Additional observations from a re-analysis of the deposited data

Results flagged for a closer look

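Of the 54 members, 5 differed between late and early stage lines by the test of the difference itself (edgeR's quasi-likelihood test, FDR at most 0.05), 2 higher and 3 lower, beside 6.6% and 6.1% of all genes. All 5 calls were lost without the 200 nM line. The 50 nM line alone then stood for the late stage, and the spread came from the other groups. The log2 difference in that fit was -0.81 for E2F1, -0.36 for TYMS, -0.46 for TK1, 0.31 for CCND3 and 2.84 for CCND1. E2F1 had a late minus early log2 difference of -0.84 (FDR = 0.0167), with both late stage lines below all 3 early stage lines. TYMS had -0.43 (FDR = 0.0296) and TK1 -0.47 (FDR = 0.0493), again with both late stage lines below all 3 early stage lines. CCND3 had 0.43 (FDR = 0.0387) and CCND1 3.62 (FDR = 0.044), with both late stage lines above all 3 early stage lines. In CCND1 the 25 nM line, at 15.0 CPM, stood apart from the 10 and 15 nM lines, at 2.38 and 1.28 CPM. A single line was not tested against the rest of its group.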

How the results depend on the processing

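Under 14 alternatives (test, scaling, filter, groups in the fit, each library left out), the 14 member calls gave 196 values, of which 78 (39.8%) lost the call and 118 kept it. Among members not called, 26 values gained a call, and 0 values turned. The shares of calls lost and gained over all tested genes were not counted. Calls over all genes moved as well, from 1881 at the early stage to 3548 with DESeq2. With 1 early stage line left out they were 535 to 1111. All members had at least 10 CPM in 2 or more libraries of 20059656 to 27844799 counts.

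Members past the threshold at the early stage, 4 higher and 1 lower, were 9 and 4 with DESeq2 (16.4% and 17.6% of all genes), 15 and 4 at an FDR of 0.05, and 19 and 7 by lines that do not overlap. The lower count was 2 with limma voom (10.9% of all genes), with no filter (6.57%) and with only the 2 groups in the fit (10.4%). With 1 early stage line left out the counts were 1 to 2 higher and 0 lower, beside 1.87% to 4.42% and 3.25% to 6.21% of all genes. With any 1 line left out the median ranged from 0.0409 to 0.243. At the late stage, 1 higher and 3 lower became 5 higher with DESeq2 (11.5% of all genes), 3 higher with no filter (2.64%), 0 and 0 with only the 2 groups (0.823% and 1.64%), 7 and 7 at 0.05, and 20 and 10 by lines that do not overlap. Leaving out 1 early stage line gave 0 to 1 and 0 to 2, beside 0.966% to 2.24% and 1.66% to 3.48% of all genes. Between the stages, 2 higher and 3 lower became 8 lower with DESeq2 (10.5% of all genes), 0 higher with only the 2 groups (3.72%), and 0 and 0 at 0.005. Leaving out 1 early stage line gave 0 to 1 and 1 to 2, beside 2.59% to 5.85% and 1.68% to 5.19% of all genes. The median of -0.065 was -0.0272 with no filter.

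Other pathway genes past the threshold, 6 at the early stage, were 23 with DESeq2, 32 at 0.05 and 0 to 8 with 1 line left out. The 4 at the late stage were 10, 18 and 0 to 3, and 0 with only the 2 groups. The 9 between stages were 5 with only the 2 groups, 0 at 0.005 and 0 to 12 with 1 line left out. Over all genes, the 1881 early stage calls were 208 without the naive line, 529 without the DMSO line and 3548 with DESeq2, and the 834 late stage calls 33, 110 and 2503. The 1328 calls between stages were 0 without the 200 nM line (edgeR, 1975 genes at an unadjusted p under 0.05), 701 with only the 2 groups and 2193 with DESeq2. The cause of these shifts was not tested. Beside the 23 and 10 of 65 other pathway genes called with DESeq2, 33.9% and 23.9% of all genes were called. Beside the 32 and 18 at 0.05, 22.6% and 24% of all genes were higher and lower at the early stage. At the late stage these were 16.2% and 17.6%. With only the 2 groups in the fit, 2.46% of all genes were called at the late stage and 6.71% between stages. With 1 early stage line left out, 0 to 4 of the 65 passed at the early stage, beside 5.12% to 10.6% of all genes. No paired analysis was possible because the labels number no replicates that the groups share.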
